A study of Rattus norvegicus with 9 samples.

Results

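The 9 genes described here belong to the myelin programme of mature oligodendrocytes, the cells that wrap axons of the central nervous system. Mbp, Mobp, Mal, Mog, Mag, Cnp, Cldn11 and Opalin encode proteins of the myelin sheath or of the oligodendrocyte membrane, and Myrf encodes a transcription factor of the same cells. They were chosen by gene symbol, with earlier results of these data known. Each symbol matched 1 gene of the 36051 in the deposited count table. All 9 passed the filter on low counts that left 16678 genes to test. RNA from rat spinal cord was sequenced in 9 libraries, 3 per group, sampled on day 3. The SCI_ALA group had a contusion of the cord at segment T9, made with an impactor, and received alpha-lipoic acid, an antioxidant. The SCI_Veh group had the same contusion and received normal saline, and the sham group had a sham operation. All rats carried the WT genotype. The labels used here give no strain, sex, age or dose, and no length of cord taken. They also do not say whether the replicates were separate animals, so the spread behind the p-values is that among these libraries and could be technical.

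Myelin is a stack of oligodendrocyte membrane around an axon. In its compact layers the cytoplasmic faces are held together by Mbp, while channels of cytoplasm, kept open with the help of Cnp, lead to the innermost layer, where Mag faces the axon. Myrf is made as a membrane protein that cuts itself and releases a fragment to the nucleus, where it acts with Sox10 on myelin genes, and it is needed in mice to build and to keep myelin. Contusion of the cord is known to kill oligodendrocytes, and precursors later divide and form new ones.

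The libraries held 13857771 to 15736132 counts. The 9 genes together took 1.93% to 2.64% of a library's counts in SCI_ALA, 1.56% to 2.52% in SCI_Veh and 2.95% to 5.31% in sham. Mbp alone took 1.67% to 2.35% in SCI_ALA, 1.29% to 2.04% in SCI_Veh and 2.45% to 4.32% in sham. Libraries also differed in other features. The Spearman correlation between a gene's length and its deviation from the mean was taken across the more highly expressed genes. It ran from -0.46 to 0.0328 in SCI_ALA, from 0.0517 to 0.118 in SCI_Veh and from -0.188 to 0.342 in sham. Every SCI_ALA library thus lay below every SCI_Veh library in this measure. The lowest values belonged to SCI_ALA replicate 3 and sham replicate 2 within their groups. SCI_ALA replicate 2, at -0.285, also lay below sham replicate 2. Mitochondrial transcripts took 7.5% ± 0.953 of counts in SCI_ALA, 7.35% ± 0.805 in SCI_Veh and 12.2% ± 3.56 in sham (SD, n = 3 each), and every sham library, at 8.59% or more, lay above every injured library, at 8.1% or less. The part of these features in the results below was not tested. All member counts were also computed with the length trend removed, and without SCI_ALA replicate 3 and sham replicate 2. The latter setting kept SCI_ALA replicate 2. In bulk tissue, fewer oligodendrocytes and less RNA per oligodendrocyte cannot be told apart.

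The windows before the start sites of 4 members are shown because they hold letters that Myrf or Sox proteins are known to bind. Members whose windows hold letters of the Myrf kind are set beside Myrf below. The sequences are those of RefSeq on GRCr8 and hold 250 bases up to the start site, 5′ to 3′ on the gene's strand. Capitals mark the MYRF-type letters CTGGCAC or CTGGTAC and the SOX-type letters ACAAAG or ACAATG on either strand, so that a run of CTTTGT marks ACAAAG read on the opposite strand. No motif overlapped another in these windows. Mag lay at chr1:95291045-95291294 on the minus strand, Cnp at chr10:86011254-86011503 on the plus strand, Opalin at chr1:249858191-249858440 on the minus strand, and Mobp at chr8:128746982-128747231 on the plus strand.
Mag: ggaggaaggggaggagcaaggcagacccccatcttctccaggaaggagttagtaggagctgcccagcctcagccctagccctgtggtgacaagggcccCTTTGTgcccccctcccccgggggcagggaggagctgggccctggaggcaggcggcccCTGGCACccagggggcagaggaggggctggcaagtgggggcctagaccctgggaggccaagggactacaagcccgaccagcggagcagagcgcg
Cnp: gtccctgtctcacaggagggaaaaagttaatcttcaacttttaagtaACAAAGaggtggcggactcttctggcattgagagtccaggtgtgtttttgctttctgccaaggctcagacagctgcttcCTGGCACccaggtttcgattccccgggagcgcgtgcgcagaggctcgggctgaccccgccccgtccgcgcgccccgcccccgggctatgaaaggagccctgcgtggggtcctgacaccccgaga
Opalin: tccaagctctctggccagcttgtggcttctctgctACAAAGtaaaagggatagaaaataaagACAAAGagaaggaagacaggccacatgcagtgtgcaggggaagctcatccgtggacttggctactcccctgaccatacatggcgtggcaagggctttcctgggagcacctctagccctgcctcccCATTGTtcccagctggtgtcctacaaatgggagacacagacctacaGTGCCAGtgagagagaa
Mobp: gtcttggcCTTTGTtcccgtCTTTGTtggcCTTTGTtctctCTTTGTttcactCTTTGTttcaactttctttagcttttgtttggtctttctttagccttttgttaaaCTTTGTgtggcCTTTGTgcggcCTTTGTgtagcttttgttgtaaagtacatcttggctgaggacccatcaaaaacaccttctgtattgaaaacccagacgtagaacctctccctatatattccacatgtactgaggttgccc

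Of the 9 members, 7 had a RefSeq window, and Mbp had 2, which makes 8 windows. The search covered 300 bases, from 250 before to 50 after the start. A MYRF-type match stood in 5 of the 8 windows, those of Mag, Cnp, Cldn11, Opalin and Mal, against 6.78% of all 33465 windows searched. Mag held CTGGCAC 94 bases before its start, Cnp 124 bases before, Mal 126 bases before on the opposite strand and Opalin 17 bases before on the opposite strand, and Cldn11 held CTGGTAC 120 bases before on the opposite strand. A SOX-type match also stood in 5 of the 8 windows, against 29.1% of all windows. The Mobp window held ACAAAG 8 times, all on the opposite strand, and 3 of the 33465 windows (0.00896%) held it at least that often. That number was taken from the member window with the most matches, so the share is no test. The matches stand in a run of repeated letters and are not separate observations. These matches are letters in a window and were not measured as binding sites. Mog and Myrf had no window in the table.

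Injury with saline was compared with sham to ask how the myelin genes stood on day 3. 6 of the 9 genes were lower in SCI_Veh than in sham at an adjusted p under 0.05 in edgeR's quasi-likelihood test, and none was higher, where 18.5% of all tested genes were lower and 19.5% higher. The 6 were Mbp, Mobp, Mal, Mog, Opalin and Cnp. In 5 of 9, all but Cnp of these 6, the SCI_Veh libraries all lay below the sham libraries, as did 23.9% of all tested genes, with 25.8% wholly above. At an unadjusted p under 0.05 the same test gave 6 members, beside 47.1% of all tested genes. All 9 log2 fold changes were negative, with a median of -1.18, beside a median of 0.0029 over all tested genes. Levels below are CPM, counts scaled to a common library size, and the plot of CPM by library shows the same values.

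**Figure D1:**
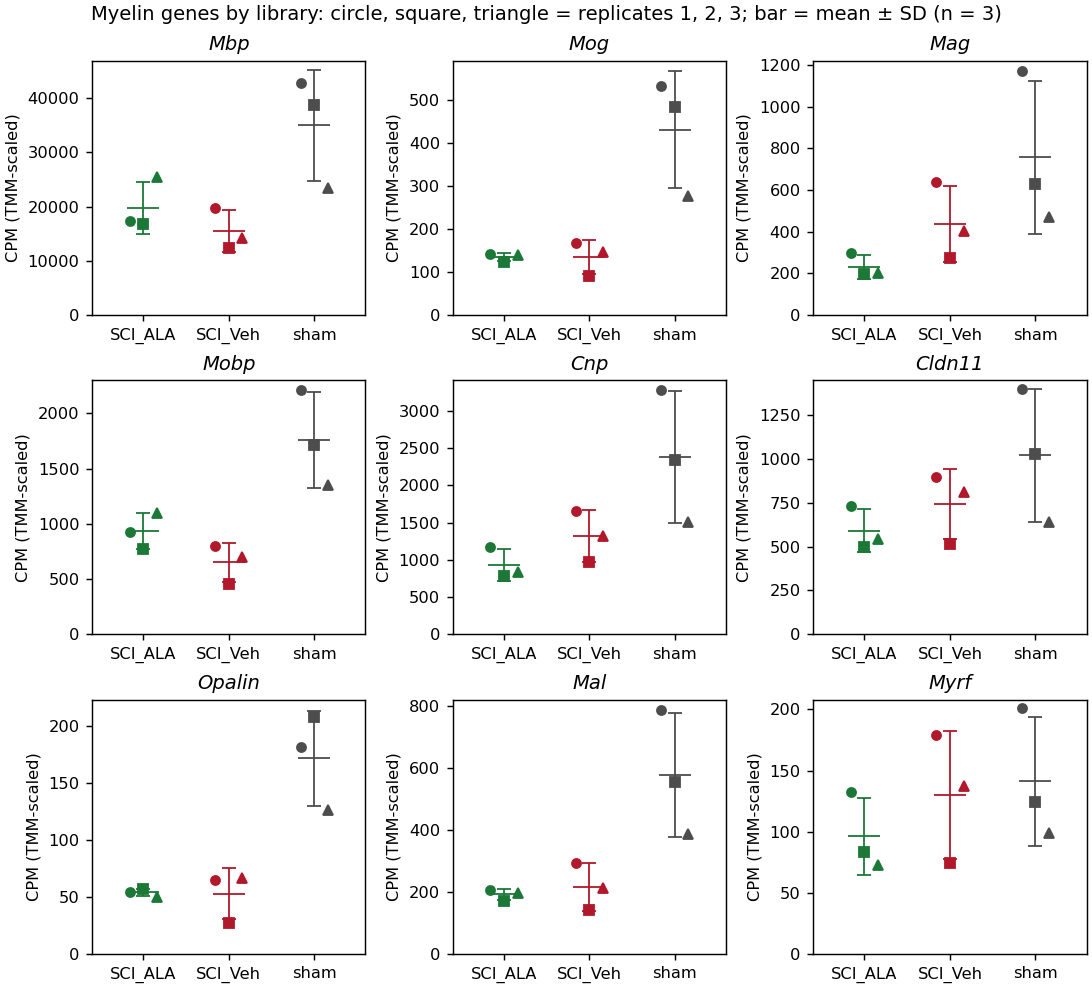
Each panel plots the CPM of 1 member on a linear axis from 0 in the 9 libraries, with SCI_ALA left, SCI_Veh in the middle and sham on the right. Points are libraries, with a symbol for each replicate number, and bars are the mean ± SD (n = 3 each). Mobp, Mog, Opalin and Mal separate both injured groups from sham, whereas the 3 groups of Myrf overlap.

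The transcripts of Mbp, Mobp and Mal, whose proteins belong to compact myelin, were all lower in SCI_Veh than in sham. Mbp (ENSRNOG00000016516, Rnor_6.0 chromosome 18, 79326738 to 79437310, plus strand) had 17400, 16800 and 25400 CPM in SCI_ALA, 19800, 12400 and 14200 CPM in SCI_Veh and 42800, 38700 and 23500 CPM in sham. The sham libraries all lay above the SCI_Veh libraries, while the highest SCI_ALA library lay above the lowest sham library. Mbp was lower in SCI_Veh than in sham by a log2 fold change of -1.18 (SE 0.297, adjusted p = 0.00847, edgeR). Mobp, a small basic protein of the same compact layers (ENSRNOG00000018700, chromosome 8, 128824508 to 128850358, plus strand), had 930, 774 and 1100 CPM in SCI_ALA, 799, 456 and 700 CPM in SCI_Veh and 2210, 1710 and 1350 CPM in sham. No injured library reached the lowest sham library. The Mobp log2 fold change in SCI_Veh against sham was -1.43 (SE 0.251, adjusted p = 0.000991, edgeR). Mal, a membrane proteolipid that takes part in sorting lipids and proteins to myelin (ENSRNOG00000015445, chromosome 3, 120209647 to 120233655, minus strand), had 207, 172 and 197 CPM in SCI_ALA, 293, 140 and 211 CPM in SCI_Veh and 788, 554 and 388 CPM in sham. The injured groups again lay wholly below sham. The Mal log2 fold change in SCI_Veh against sham was -1.42 (SE 0.287, adjusted p = 0.00245, edgeR).

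Of the surface glycoproteins, Mog and Opalin were lower in SCI_Veh than in sham and Mag did not pass the test, and the difference between them was not tested. Mog, an immunoglobulin-family protein of the outermost myelin layer (ENSRNOG00000000775, chromosome 20, 2004052 to 2014286, plus strand), had 142, 124 and 139 CPM in SCI_ALA, 167, 91.1 and 146 CPM in SCI_Veh and 534, 484 and 278 CPM in sham. Every sham library lay above every injured library. Mog was 3.21-fold lower in SCI_Veh than in sham (log2 fold change -1.68, SE 0.264, adjusted p = 0.000469, edgeR). The Mog locus overlaps Zfp57 on the opposite strand, and strand use in counting is not given in the sources used here, so reads in the shared stretch cannot be told apart. Zfp57 had 127 to 395 counts per library, against 1365 to 8150 for Mog. Opalin, a sialylated membrane glycoprotein specific to oligodendrocytes (ENSRNOG00000022386, chromosome 1, 260324028 to 260341723, minus strand), had 54.7, 56.8 and 50.2 CPM in SCI_ALA, 64.8, 26.6 and 66.3 CPM in SCI_Veh and 182, 208 and 126 CPM in sham. Its injured libraries all lay below sham. Opalin was 3.27-fold lower in SCI_Veh (log2 fold change -1.71, SE 0.305, adjusted p = 0.00122, edgeR). Mag, a sialic-acid-binding lectin of the layer next to the axon (ENSRNOG00000021023, chromosome 1, 89345429 to 89360733, minus strand), had 298, 196 and 202 CPM in SCI_ALA, 638, 274 and 403 CPM in SCI_Veh and 1170, 627 and 472 CPM in sham. SCI_Veh replicate 1 lay above sham replicates 2 and 3, so the SCI_Veh and sham groups overlapped. The Mag log2 fold change in SCI_Veh against sham was -0.79 (SE 0.369) and did not pass the test (adjusted p = 0.116, edgeR).

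Cnp and Cldn11 belong to the cytoplasmic channels and the tight junctions of the sheath. Cnp, a phosphodiesterase of cytoplasm-filled myelin (ENSRNOG00000017496, chromosome 10, 88490798 to 88497356, plus strand), had 1170, 788 and 835 CPM in SCI_ALA, 1660, 970 and 1320 CPM in SCI_Veh and 3280, 2340 and 1510 CPM in sham. SCI_Veh replicate 1 lay above sham replicate 3. The Cnp log2 fold change in SCI_Veh against sham was -0.85 (SE 0.292, adjusted p = 0.037, edgeR). Cldn11, the claudin of the tight junctions between myelin layers (ENSRNOG00000010263, chromosome 2, 115823538 to 115836846, minus strand), had 731, 497 and 546 CPM in SCI_ALA, 896, 517 and 811 CPM in SCI_Veh and 1400, 1030 and 641 CPM in sham. Sham replicate 3 lay within the range of both injured groups. The Cldn11 log2 fold change in SCI_Veh against sham was -0.47 (SE 0.288), which did not pass the test (adjusted p = 0.223, edgeR).

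Myrf, the transcription factor (ENSRNOG00000028274, chromosome 1, 226260558 to 226292480, minus strand), had 132, 83.1 and 72.9 CPM in SCI_ALA, 179, 74.4 and 137 CPM in SCI_Veh and 201, 124 and 98.9 CPM in sham. The 3 groups overlapped throughout. Its log2 fold change in SCI_Veh against sham was -0.11, with a 95% confidence interval from -0.899 to 0.669 and an adjusted p of 0.828 in edgeR. The 5 members with a MYRF-type match in the window shown or described above included 3 that were lower in SCI_Veh (Cnp, Opalin and Mal) and 2 that did not pass the test (Mag and Cldn11), and the lower genes Mbp and Mobp had none.

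The calls for Cnp and Mag in SCI_Veh against sham changed with the libraries used and with the processing. The edgeR adjusted p for Cnp was 0.162 without sham replicate 1, 0.138 without SCI_Veh replicate 2, 0.0895 without SCI_Veh replicate 3, 0.0673 without sham replicate 2 and 0.0518 without SCI_ALA replicate 2, and it ran from 0.00769 to 0.162 over all alternatives. Cnp also missed the threshold with library totals (0.0683), with only the 2 groups fitted (0.0565), in limma on log2(FPKM + 1) (0.0515) and on log2(FPKM + 0.1) (0.0527), and without SCI_ALA replicate 3 and sham replicate 2 together (0.0981). The edgeR adjusted p for Mag was 0.0409 without SCI_Veh replicate 1 and ran from 0.0108 to 0.484 over all alternatives, and DESeq2 gave an adjusted p of 0.0497.

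**Figure D2:**
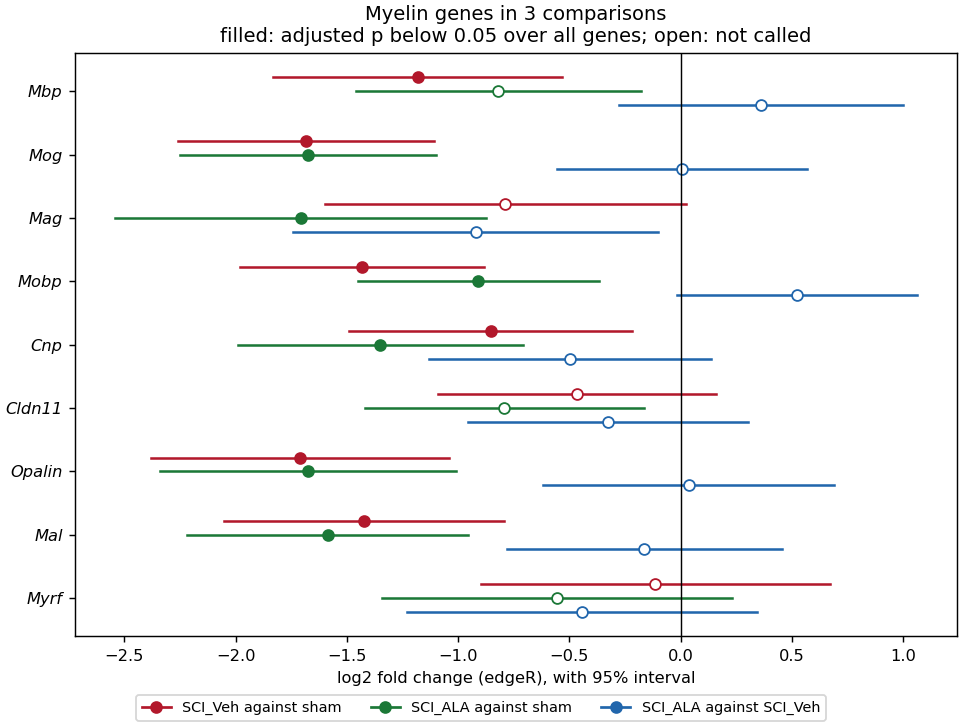
The log2 fold change of each member is plotted on the x axis for the 3 comparisons, with bars for the 95% confidence interval and filled points for an adjusted p under 0.05 in edgeR. Filled points lie left of 0 for 6 members in each comparison with sham, and no point is filled in SCI_ALA against SCI_Veh.

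Injury with alpha-lipoic acid was compared with sham in the same fit. This comparison shares its sham libraries with the one above, so the values are set side by side and their likeness is no result. 6 of the 9 members were lower in SCI_ALA than in sham and none was higher, where 33.1% of all tested genes differed, 15.8% lower and 17.3% higher. They were Mobp, Mal, Mog, Opalin, Mag and Cnp, and in all 6 the SCI_ALA libraries lay wholly below the sham libraries, as they did for 22.4% of all tested genes, with 23.4% wholly above. At an unadjusted p under 0.05 edgeR gave 8 members, beside 43.7% of all tested genes. The median log2 fold change of the 9 members was -1.35, beside -0.0089 over all tested genes. Mag was 3.27-fold lower in SCI_ALA (log2 fold change -1.71, SE 0.377, adjusted p = 0.00577, edgeR), and Cnp was 2.55-fold lower (log2 fold change -1.35, SE 0.295, adjusted p = 0.00451, edgeR). Mog and Opalin were each 3.19-fold lower, with edgeR adjusted p-values of 0.000603 for Mog and 0.00169 for Opalin, and Mal was 3-fold lower (adjusted p = 0.0016, edgeR). Mobp was 1.88-fold lower (adjusted p = 0.015, edgeR). Mbp (log2 fold change -0.82, adjusted p = 0.0507) and Cldn11 (-0.79, adjusted p = 0.0529) lay just past the threshold in edgeR, and Myrf had a log2 fold change of -0.56 with a 95% confidence interval from -1.34 to 0.231 (adjusted p = 0.258, edgeR).

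Several of these calls also changed with the libraries used and with the processing. Mbp had an edgeR adjusted p of 0.0414 without SCI_ALA replicate 3 and 0.0185 without sham replicate 3. It passed in 10 of the 23 alternatives, among them other scalings and filters (0.0333 to 0.0496) and DESeq2 (0.00723). Cldn11 had an edgeR adjusted p of 0.0453 without SCI_ALA replicate 1, 0.0448 without SCI_Veh replicate 2 and 0.0133 without sham replicate 3, and it also passed with the length trend removed (0.0274) and in DESeq2 (0.0182). Mobp had an edgeR adjusted p of 0.073 without SCI_ALA replicate 2 and 0.0594 without sham replicate 1. Without both SCI_ALA replicate 3 and sham replicate 2, Mag (adjusted p = 0.0777) and Cnp (0.0562) did not pass in edgeR and Mbp (0.0496) did.

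Alpha-lipoic acid was compared with saline within injured rats to ask whether the treatment moved the myelin genes. None of the 9 members passed the test, where 0.12% of all tested genes did, 20 genes in all (0.042% lower and 0.0779% higher). At an unadjusted p under 0.05 edgeR gave 1 member, Mag, beside 12.3% of all tested genes, and DESeq2 and limma also called none of the 9. No member had SCI_ALA and SCI_Veh libraries that did not overlap, against 12.2% of all genes that were lower and 11.6% that were higher without overlap. The log2 fold changes went both ways, negative in 5 members and positive in 4, with a median of -0.16 beside -0.0084 over all tested genes.

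The intervals set what sizes these data could miss. Mag had the log2 fold change farthest from 0, -0.92 (SE 0.37, 95% confidence interval -1.74 to -0.102, adjusted p = 0.355, edgeR). Its SCI_Veh replicate 1, at 638 CPM, was the highest injured library, and its SCI_Veh replicate 2, at 274 CPM, lay below SCI_ALA replicate 1. Mobp had the highest value, 0.52 (95% confidence interval -0.0181 to 1.06, adjusted p = 0.423, edgeR), and Mbp had 0.36 (95% confidence interval -0.278 to 1, adjusted p = 0.65, edgeR). Mog had a log2 fold change of 0.0072 with a 95% confidence interval from -0.555 to 0.569. The other 5 members ran from -0.50 for Cnp to 0.04 for Opalin, and every one of their intervals included 0.

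Within sham and SCI_Veh most members had the same highest and the same lowest library. The share of all tested genes with that order was not computed, so it is not read as a trait of the members. All 9 members were lowest in sham replicate 3 among the sham libraries and in SCI_Veh replicate 2 among the SCI_Veh libraries, and 8 of the 9 were highest in replicate 1 of each of these groups. Opalin was the exception in both, with its highest value in sham replicate 2 and in SCI_Veh replicate 3. In SCI_ALA, 7 members were lowest in replicate 2, and Opalin and Myrf were lowest in replicate 3. 6 members were highest in SCI_ALA replicate 1, Mbp and Mobp in SCI_ALA replicate 3 and Opalin in SCI_ALA replicate 2. The highest library held 1.13 to 1.81 times the CPM of the lowest in SCI_ALA, 1.61 to 2.5 times in SCI_Veh and 1.64 to 2.48 times in sham.

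Per length of transcript, in FPKM, the order of the levels was headed by Mbp in every group. Mean FPKM was 5820 in SCI_ALA, 4500 in SCI_Veh and 10300 in sham for Mbp, and 400 in SCI_ALA, 561 in SCI_Veh and 1020 in sham for Cnp, which came next. No Cnp library reached the lowest Mbp library in any group. Cldn11 (315, 393 and 549 FPKM in SCI_ALA, SCI_Veh and sham) and Mobp (241, 167 and 455 FPKM) followed. Cldn11 and Mobp did not overlap in SCI_Veh but overlapped in SCI_ALA and in sham. Means of Mag, Mog and Mal ran from 83.5 to 88.9 FPKM in SCI_ALA, from 83.7 to 167 FPKM in SCI_Veh and from 252 to 291 FPKM in sham. Neighbours among them in the order of means overlapped in each group. In SCI_Veh, however, Mag (106 to 241 FPKM) lay wholly above Mog (57.5 to 103 FPKM). Opalin and Myrf were the lowest in each group. Opalin averaged 19.4 FPKM in SCI_ALA, 18.8 FPKM in SCI_Veh and 62.2 FPKM in sham, and Myrf averaged 17.1 FPKM in SCI_ALA, 23.1 FPKM in SCI_Veh and 25.3 FPKM in sham. Opalin lay wholly above Myrf in sham, and the pair overlapped in both injured groups.

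Because most members had the same highest and lowest library in sham and SCI_Veh, each was also set against Mbp in the same library. The measure was the difference of log2 CPM. These differences are a description, since 3 libraries against 3 allow no exact p under 0.1. For Mog the difference was -6.94, -7.07 and -7.51 in SCI_ALA, -6.89, -7.08 and -6.6 in SCI_Veh and -6.32, -6.32 and -6.4 in sham. Mog was thus lower against Mbp in every injured library than in any sham library, as were 2.75% of all tested genes for SCI_ALA and 2% for SCI_Veh. Opalin and Mal also lay wholly below sham against Mbp in SCI_ALA but overlapped with sham in SCI_Veh. No member lay wholly above sham in SCI_ALA, where 41% of all tested genes did. For Myrf the difference was -7.04, -7.65 and -8.44 in SCI_ALA, -6.79, -7.37 and -6.69 in SCI_Veh and -7.73, -8.29 and -7.89 in sham. Myrf, Cldn11 and Cnp lay wholly above sham against Mbp in SCI_Veh, as did 57.4% of all tested genes, so that a position above Mbp was common. Cnp overlapped once the length trend was removed.

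Between the injured groups, Mag and Cnp were lower against Mbp in SCI_ALA without overlap. For Mag the difference to Mbp was -5.87, -6.42 and -6.97 in SCI_ALA and -4.96, -5.5 and -5.14 in SCI_Veh. For Cnp it was -3.89, -4.41 and -4.92 in SCI_ALA and -3.58, -3.67 and -3.42 in SCI_Veh. Such a position was shared by 15.8% of all tested genes, while 1.4% lay wholly above and no member did, and both members kept it with the length trend removed. SCI_ALA replicate 3, which had the highest Mbp among the injured libraries, also had the lowest difference to Mbp among them for each of the 7 members other than Mobp and Mbp.

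**Figure D3:**
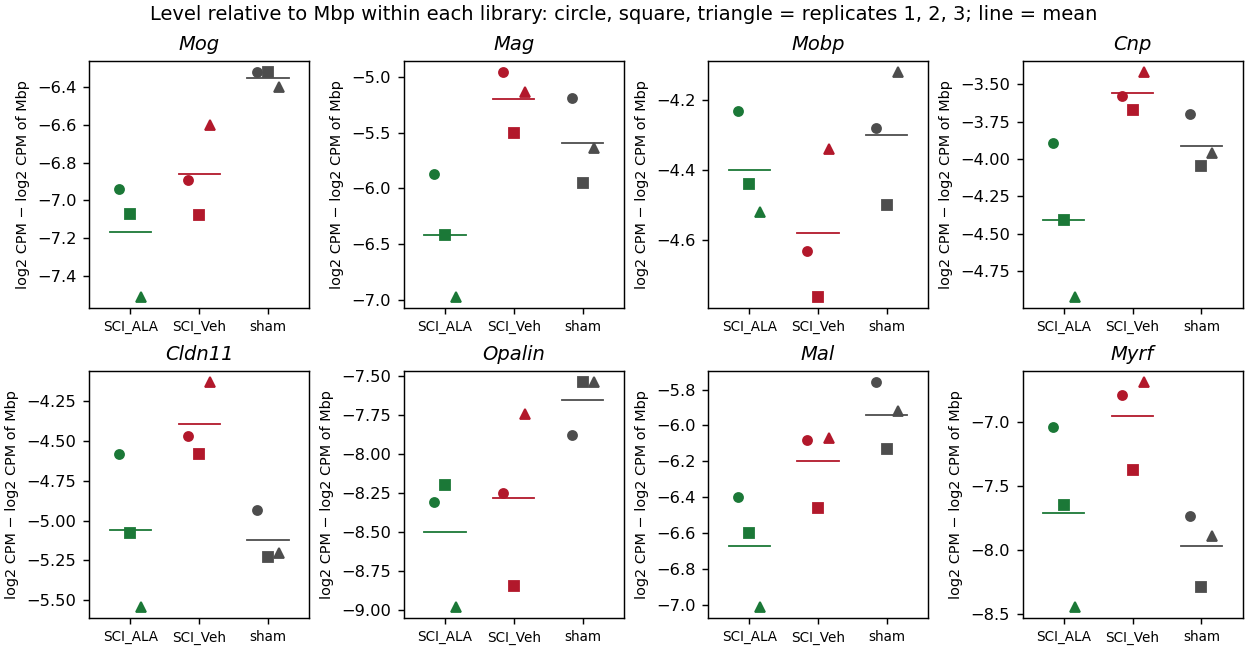
The difference of log2 CPM between each other member and Mbp is plotted on the y axis for the 9 libraries, with SCI_ALA left of SCI_Veh and SCI_Veh left of sham. Mog lies between -7.51 and -6.6 in the injured libraries and between -6.4 and -6.32 in sham, and Mag is lower in SCI_ALA than in SCI_Veh without overlap.

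The other genes of the programme were read from lists chosen for their roles, with earlier results of these data known. The counts from these lists are therefore a description and no test. Their counts stand beside 15.8% of all tested genes lower in SCI_ALA and 18.5% lower in SCI_Veh, with 17.3% higher in SCI_ALA and 19.5% higher in SCI_Veh. A few genes, among them Ermn, stand in more than 1 list and are counted in each. Of 15 genes of other proteins of the myelin membrane and cytoskeleton tested, 11 were lower in SCI_ALA and 10 were lower in SCI_Veh than in sham, with none higher and median log2 fold changes of -1.17 in SCI_ALA and -1.06 in SCI_Veh. Ermn, a cytoskeletal protein of oligodendrocytes, was 3.83-fold lower in SCI_ALA (adjusted p = 0.000183, edgeR) and 4.25-fold lower in SCI_Veh (adjusted p = 8.58e-05, edgeR). Omg, a surface glycoprotein of oligodendrocytes and neurons, was 3.72-fold lower in SCI_ALA (adjusted p = 3.52e-05, edgeR) and 4.08-fold lower in SCI_Veh (adjusted p = 1.67e-05, edgeR).

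The enzymes of myelin lipids were lower as well. Of 9 tested, 8 were lower in SCI_ALA and 6 in SCI_Veh than in sham, with median log2 fold changes of -1.01 in SCI_ALA and -0.97 in SCI_Veh. Ugt8, which makes galactosylceramide, averaged 174 ± 38 CPM in SCI_ALA, 339 ± 119 CPM in SCI_Veh and 1430 ± 379 CPM in sham (SD, n = 3 each). It was 8.19-fold lower in SCI_ALA (adjusted p = 3.52e-05, edgeR) and 4.22-fold lower in SCI_Veh (adjusted p = 0.000249, edgeR). Fa2h, which hydroxylates the fatty acids of these lipids, was 6.97-fold lower in SCI_ALA (adjusted p = 0.000201, edgeR) and 5.18-fold lower in SCI_Veh (adjusted p = 0.000393, edgeR). Aspa, which frees acetate from N-acetylaspartate, was 1.56-fold lower in SCI_ALA (adjusted p = 0.0134, edgeR) and 1.96-fold lower in SCI_Veh (adjusted p = 0.00103, edgeR). Cholesterol is the main sterol of myelin. Of 16 genes of its synthesis tested, 15 were lower in each injured group than in sham. Their median log2 fold changes were -2.16 in SCI_ALA and -1.7 in SCI_Veh. These are genes of a pathway and no markers of oligodendrocytes, and most neuron and astrocyte markers were lower too, as given below. The part of other cells in this count was not tested.

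Genes of the axon-glia junction, gap junctions and ion handling were lower in 12 of 12 tested in SCI_ALA and in 9 of 12 in SCI_Veh, with median log2 fold changes of -1.64 in SCI_ALA and -1.16 in SCI_Veh. The count for SCI_Veh was 5 without SCI_Veh replicate 2, and that for SCI_ALA was 7 without SCI_ALA replicate 3 and sham replicate 2 together. This list is not confined to oligodendrocytes, and most neuron and astrocyte markers were lower too, as given below. The part of those cells in these counts was not tested. Cntn1, an adhesion molecule that neurons carry too, was 3.34-fold lower in SCI_ALA (adjusted p = 2.09e-05, edgeR) and 2.73-fold lower in SCI_Veh (adjusted p = 4.41e-05, edgeR). Lgi3, a secreted protein of oligodendrocytes, was 3.82-fold lower in SCI_ALA (adjusted p = 0.000242, edgeR) and 2.97-fold lower in SCI_Veh (adjusted p = 0.000686, edgeR), and Car2, a carbonic anhydrase, was 1.95-fold lower in SCI_ALA (adjusted p = 0.0187, edgeR) and 2.94-fold lower in SCI_Veh (adjusted p = 0.00119, edgeR). The edgeR adjusted p for Car2 in SCI_ALA was 0.0661 without SCI_ALA replicate 1 and 0.0674 without sham replicate 2. Of 18 mature oligodendrocyte genes in a further list, which shares genes such as Ermn with the lists above, 12 were lower and 1 was higher in SCI_ALA, and 10 were lower and 1 was higher in SCI_Veh, with median log2 fold changes of -1.09 in SCI_ALA and -0.95 in SCI_Veh. Without SCI_ALA replicate 1, SCI_Veh replicate 1 or SCI_Veh replicate 2 another gene was higher in SCI_ALA, Cryab, a small heat shock protein (edgeR adjusted p = 0.0402 to 0.0476, against 0.0634 with all libraries). Plekhb1, an oligodendrocyte-enriched membrane-binding protein, was 3.22-fold lower in SCI_ALA (adjusted p = 0.000439, edgeR) and 4.1-fold lower in SCI_Veh (adjusted p = 0.000101, edgeR). The higher gene in both was Il33, a nuclear cytokine that astrocytes and other cells also make. Il33 averaged 234 ± 53.9 CPM in SCI_ALA, 489 ± 84.2 CPM in SCI_Veh and 117 ± 16.2 CPM in sham (SD, n = 3 each), 2-fold higher in SCI_ALA (adjusted p = 0.00295, edgeR) and 4.17-fold higher in SCI_Veh (adjusted p = 2.38e-05, edgeR).

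The lists also held oligodendrocyte transcription factors and partners of Myrf. Not all of these are transcription factors, with Tmem98 and Carhsp1 as examples, and both were called in SCI_ALA. Of 13 tested, 4 were lower and 1 was higher in SCI_ALA, and 3 were lower and 1 was higher in SCI_Veh, with median log2 fold changes of -0.63 in SCI_ALA and -0.16 in SCI_Veh. These 5 of 13 called in SCI_ALA and 4 of 13 in SCI_Veh stand beside 33.1% of all tested genes called in SCI_ALA and 38% in SCI_Veh. Without SCI_ALA replicate 3 and sham replicate 2 together, 1 was lower in SCI_ALA. St18, a zinc finger factor, was 3.81-fold lower (adjusted p = 0.000772, edgeR), Sox8, a close relative of Sox10, 1.88-fold lower (adjusted p = 0.0125, edgeR) and Zfp536, a zinc finger protein, 1.89-fold lower (adjusted p = 0.029, edgeR) in SCI_Veh than in sham. In SCI_ALA, St18 was 3.38-fold lower (adjusted p = 0.00165, edgeR) and Sox8 2.14-fold lower (adjusted p = 0.00559, edgeR), and Zfp536 did not pass (adjusted p = 0.0791, edgeR). Nkx2-2, a factor of the precursor stage and of differentiation, went the other way and averaged 22.5 ± 4.03 CPM in SCI_ALA, 46.1 ± 10.8 CPM in SCI_Veh and 24.6 ± 10.9 CPM in sham (SD, n = 3 each), 1.87-fold higher in SCI_Veh than in sham (adjusted p = 0.0302, edgeR). These calls were unsteady, and the lower genes in SCI_Veh numbered 1 without SCI_Veh replicate 2 or sham replicate 1, and those in SCI_ALA 2 without SCI_ALA replicate 3 or sham replicate 1 and 7 without sham replicate 3. In SCI_Veh the edgeR adjusted p for Sox8 was 0.056 without SCI_Veh replicate 2 and 0.0554 without sham replicate 1. That for Nkx2-2 was 0.0996 without SCI_Veh replicate 1, 0.0696 without SCI_Veh replicate 3, 0.103 without sham replicate 2 and 0.0822 without sham replicate 3. That for Zfp536 was 0.0591 to 0.124 without any SCI_Veh replicate, sham replicate 1 or sham replicate 3, and in SCI_ALA it was 0.0305 without sham replicate 2. The gene that was higher in SCI_ALA was Carhsp1, an RNA-binding protein, 1.8-fold (adjusted p = 0.00384, edgeR). Named after their values were seen, Sox10 and Olig2, which mark the whole oligodendrocyte lineage, had log2 fold changes of -0.65 for Sox10 (adjusted p = 0.0567) and -0.51 for Olig2 (adjusted p = 0.0872) in SCI_ALA against sham, and -0.15 for Sox10 (adjusted p = 0.65) and 0.20 for Olig2 (adjusted p = 0.5) in SCI_Veh against sham, none past the threshold in edgeR. In SCI_ALA against sham, Sox10 passed without SCI_ALA replicate 1 (adjusted p = 0.0452, edgeR) or sham replicate 3 (0.0116), and Olig2 without SCI_ALA replicate 1 (0.027) or sham replicate 2 (0.0409). Over all alternatives Sox10 passed there in 6 and Olig2 in 4 of 23. Olig1, another factor of this list, was called in neither injured group. Its edgeR adjusted p in SCI_ALA was 0.163, and 0.0461 without sham replicate 3.

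**Figure D4:**
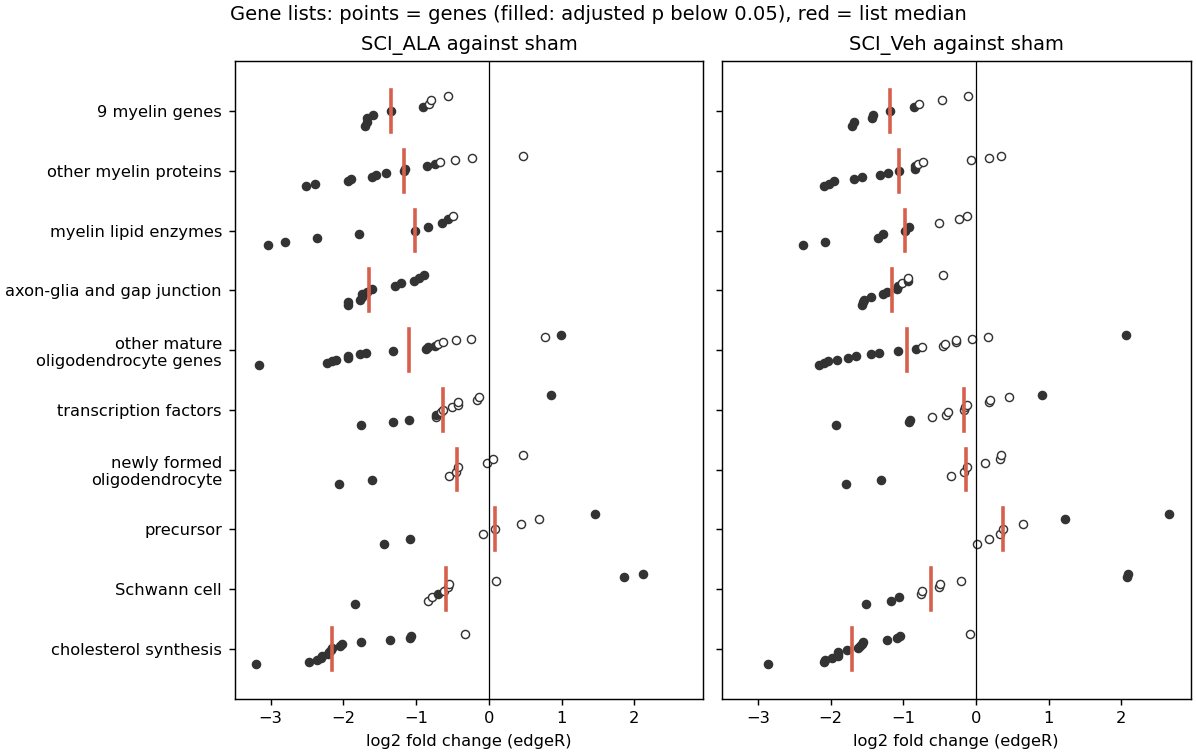
Each point is the log2 fold change of 1 tested gene in SCI_ALA against sham or SCI_Veh against sham, grouped by gene list, with filled points for an adjusted p under 0.05 in edgeR and red bars for list medians. The medians of the other myelin proteins are -1.17 in SCI_ALA and -1.06 in SCI_Veh. The list labelled transcription factors also holds partners of Myrf, and its medians are -0.63 in SCI_ALA and -0.16 in SCI_Veh.

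Markers of the other stages of the lineage were counted in the same way. Of 7 precursor genes, 2 were higher and none was lower in SCI_Veh than in sham, where 19.5% of all tested genes were higher, Vcan by 6.32-fold (adjusted p = 3.13e-06, edgeR) and Sox6 by 2.34-fold (adjusted p = 0.027, edgeR). In SCI_ALA against sham Vcan was higher (2.74-fold, adjusted p = 0.000175, edgeR), and Ptprz1 (2.12-fold, adjusted p = 0.00163) and Gpr17 (2.72-fold, adjusted p = 0.0239) were lower in edgeR. Ptprz1, a receptor phosphatase, and Vcan, a chondroitin sulfate proteoglycan, were the only genes of all lists called between SCI_ALA and SCI_Veh with all libraries in edgeR. Ptprz1 averaged 41.3 ± 4.26 CPM in SCI_ALA and 114 ± 6.18 CPM in SCI_Veh, 2.75-fold lower, and Vcan averaged 82.8 ± 13.2 CPM in SCI_ALA and 191 ± 28.3 CPM in SCI_Veh, 2.31-fold lower (SD, n = 3 each, adjusted p = 0.0483 for each, edgeR). Astrocytes also express both. Without any 1 of the 6 injured libraries neither passed, with edgeR adjusted p from 0.0748 to 0.157 for Ptprz1 and from 0.124 to 0.172 for Vcan, and Vcan also missed without sham replicate 1 (0.0607) or sham replicate 3 (0.0507). Without sham replicate 2, Il33 (adjusted p = 0.0459) and the macrophage gene Gpnmb (0.0386) passed in edgeR as well. Over all alternatives Il33 passed in 6 and Gpnmb in 4 of 23, and some other listed genes, among them Cers2 and Nipal4, passed in at most 2. The edgeR adjusted p of Sox6 was 0.114 without SCI_Veh replicate 3, 0.0532 without sham replicate 1 and 0.0721 without sham replicate 2. That of Gpr17 was 0.0922 without SCI_ALA replicate 2, 0.0731 without SCI_ALA replicate 3 and 0.0931 without sham replicate 1. Of 8 genes of newly formed oligodendrocytes, 2 were lower in each injured group, beside 15.8% of all tested genes in SCI_ALA and 18.5% in SCI_Veh, Enpp6 (4.17-fold in SCI_ALA and 3.44-fold in SCI_Veh) and Enpp4 (3.05-fold in SCI_ALA and 2.47-fold in SCI_Veh). Genes of these stage lists were named after their values were seen.

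Markers of other cells were counted in the same comparisons. Their counts stand beside 15.8% of all tested genes lower and 17.3% higher in SCI_ALA. In SCI_Veh the shares were 18.5% lower and 19.5% higher. All 10 microglia and macrophage genes were higher in each injured group, with a summed level of 4350 to 5760 CPM in SCI_ALA, 5820 to 6920 CPM in SCI_Veh and 831 to 979 CPM in sham. With 1 library left out, 9 or 10 of them were higher in each injured group. The 9 neuron genes summed to 2410 to 3190 CPM in SCI_ALA, 1910 to 2820 CPM in SCI_Veh and 4570 to 7120 CPM in sham, and 6 of 9 were lower in each injured group. In SCI_Veh the lower neuron genes numbered 5 to 7 with 1 library left out. The 8 astrocyte genes summed to 9170 to 9610 CPM in SCI_ALA, 5930 to 8420 CPM in SCI_Veh and 8470 to 11300 CPM in sham, and 7 of 8 were lower in each injured group. The SCI_ALA sums lay within the range of sham all the same, so sum and count differ there. Gfap, named after its values were seen, was the gene not called in either injured group. Schwann cells, which myelinate the peripheral roots and share Mbp, Mag and Mal with oligodendrocytes, summed to 472 to 502 CPM over 10 genes in SCI_ALA, 396 to 690 CPM in SCI_Veh and 598 to 1250 CPM in sham. Of these 10, 2 were lower and 2 higher in SCI_ALA, and 3 were lower and 2 higher in SCI_Veh. These counts lay near the shares of all tested genes. With 1 library left out the lower Schwann cell genes numbered 1 to 3 in SCI_ALA and 1 to 5 in SCI_Veh. 1 of 4 endothelial genes, Kdr, named after its values were seen, was lower in each injured group, and in SCI_Veh it did not pass without SCI_Veh replicate 1, SCI_Veh replicate 3, sham replicate 1 or sham replicate 3. In the same comparisons none of 5 erythroid genes passed the test in edgeR. Among the listed genes, Cldn5, Fth1 and Neu4 had 0 counts in every library. This can also come from how reads were assigned to genes, which was not tested, so it is not read as absence of the transcripts. The part of these cells in the myelin results was not tested.

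Across all 9 libraries the genes most like the members were named by the root-mean-square difference, in log2 units, between a gene's centred log2 CPM and the mean profile of the members. That profile stood at -0.253, -0.601 and -0.45 in SCI_ALA, at 0.11, -0.863 and -0.204 in SCI_Veh and at 1.2, 0.815 and 0.243 in sham. Of 12993 non-member genes with a mean of at least 50 counts, the closest was Gjb1, a connexin of oligodendrocyte gap junctions, at 0.106. It was followed by Wscd1 (0.13), S1pr5 (0.134), Dusp15 (0.135), Ncald (0.135), Sox8 (0.139), Chn2 (0.14), Tyro3 (0.141), Aatk (0.146) and Apbb1 (0.148), while the median over all candidates was 0.71. S1pr5 is a sphingosine-1-phosphate receptor of oligodendrocytes and Tyro3 a receptor kinase. The members themselves lay 0.195 (Mal) to 0.487 (Myrf) from the mean of the other 8. A mean profile is smoother than any of the genes that make it up, and the 9 libraries share group, depth and the features given above.

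**Figure D5:**
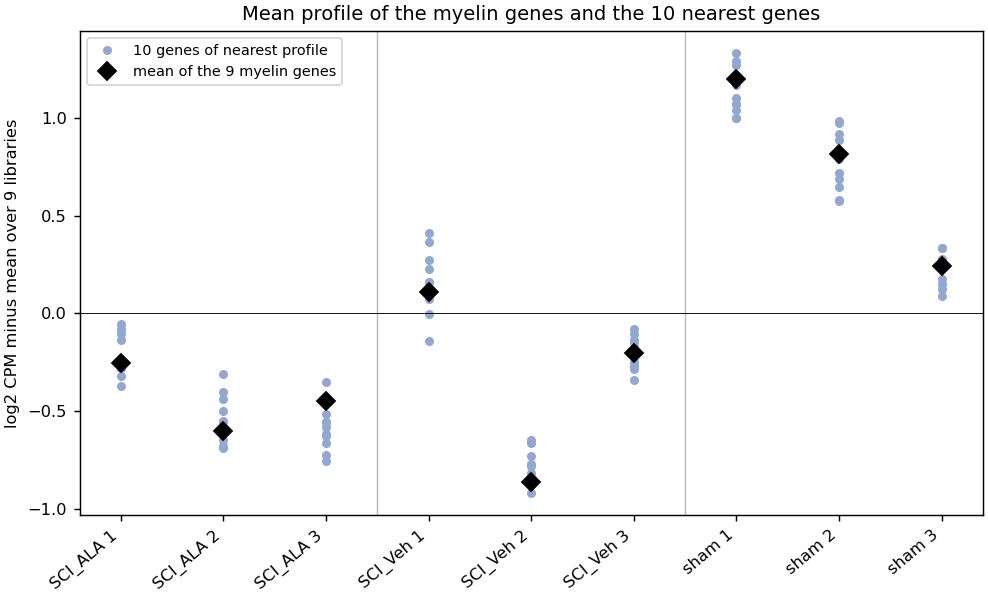
The mean centred log2 CPM of the members (diamonds) and the centred log2 CPM of the 10 closest other genes (points) are plotted on the y axis for the 9 libraries, with SCI_ALA left of SCI_Veh and SCI_Veh left of sham. The mean profile is highest at 1.2 in sham replicate 1 and lowest at -0.863 in SCI_Veh replicate 2.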

How the data were processed

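RNA of rat spinal cord was extracted with TRIzol and made into libraries with a NEBNext Ultra RNA kit, per the labels' protocols. The authors' deposited tables hold raw read counts per gene and FPKM values, which are counts scaled by transcript length and library size. HISAT2 2.0.5, featureCounts 1.5.0-p3, DESeq2 1.20.0 and the build Rnor_6.0 are named in the submitters' processing notes, while strand use and the annotation release are not given in the sources used here.

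Here, counts were tested with edgeR 4.0.16 (quasi-likelihood F test, TMM scaling, R 4.3.3) in 1 fit of all 9 libraries with 3 group means. Genes kept by filterByExpr with a minimum count of 10 and a minimum total of 15 were tested, and p-values were adjusted by the Benjamini-Hochberg method over 16678 genes, with 0.05 as the threshold. CPM used TMM-scaled library sizes and log2 CPM a prior count of 2. FPKM served for levels between genes and, with limma 3.58.1, as an alternative on log2(FPKM + 1). The alternatives were other scalings, other filters, DESeq2 1.42.0, the 2 compared groups alone, removal of a length trend (loess span of 0.5), a replicate block, and each library left out. Promoter windows came from RefSeq tables of GRCr8, matched by symbol, and their coordinates were not joined with those of Rnor_6.0. The replicates differed by more than counting noise, so all 9 were used. Scripts were tested on simulated data.

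The members and gene lists were chosen with earlier results of these data known. All members were named. The lists on myelin proteins, lipid enzymes, transcription factors with Myrf partners, junctions and other mature genes had a rule for naming. Up to 3 genes with the smallest p in SCI_Veh against sham were named from each, with any called against its list. 1 result that this rule selects is not reported here. The 10 genes closest to the mean member profile and any listed gene called in SCI_ALA against SCI_Veh were named too. Of 152 other genes listed, 143 matched a symbol and 140 were tested, and the rest were not analysed here.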

Additional observations from a re-analysis of the deposited data

How the results depend on the processing

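Over 23 alternatives the number of the 9 members called lower ran from 5 to 7 in SCI_Veh against sham and from 5 to 8 in SCI_ALA against sham, and no member was called in SCI_ALA against SCI_Veh under any. The count of all genes called in SCI_ALA against SCI_Veh, 20, was less steady. It was 1 with library totals in place of TMM, 45 with no filter, 161 with only the 2 groups fitted, 1 without robust dispersion, 397 in DESeq2, 3 on log2(FPKM + 1), 0 on log2(FPKM + 0.1) and 0 (without SCI_ALA replicate 2) to 86 (without sham replicate 2) with 1 library left out, each such count over 1.5 times away. Samples with the same replicate number did not all deviate together. Replicate 1 correlated with its own number best in all 3 comparisons (0.0954 to 0.18), while replicates 2 and 3 ran from -0.0855 to 0.0509 and 4 of the 9 best matches had another number, and the numbers are not known to pair animals. With the replicate block, 7 members were lower in SCI_Veh, 7 in SCI_ALA against sham, and 0 genes of all were called between the injured groups. The block brought the adjusted p of Mag in SCI_Veh against sham to 0.0163 and that of Cldn11 in SCI_ALA against sham to 0.032 in edgeR, both past the threshold, and with the length trend removed too it brought them to 0.0108 and 0.0101.

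Signs turned only in values that had not passed the test. In SCI_Veh against sham, Myrf had a log2 fold change of 0.17 without SCI_Veh replicate 2 and 0.245 without sham replicate 1, in a range from -0.397 to 0.245 with 1 library left out. In SCI_ALA against SCI_Veh, Mog had -0.0397 with library totals, -0.0715 with the length trend removed, -0.0506 with that and the replicate block, -0.00343 without SCI_ALA replicate 3 and sham replicate 2 together (chosen after seeing the data), and a range from -0.199 to 0.188 with 1 library left out. Opalin had -0.00766 with library totals and a range from -0.272 to 0.24 with 1 library left out, and Mal had a range from -0.384 to 0.125, positive without SCI_Veh replicate 1. The cause was not tested. No scaling moved the median of all genes by 0.1 or more on the log2 scale. The highest library of a group held up to 2.5 times the CPM of its lowest for a member.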
